A study of Mus musculus with 8 samples.

Results

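The genes described here are 10 genes of iron uptake, storage, export and sensing, measured by bulk RNA-seq in lung endothelial cells (ECs) of neonatal mice. They were chosen by symbol for these roles (Tfrc, Slc11a2, Steap3, Fth1, Ftl1, Ncoa4, Slc40a1, Cp, Ireb2 and Aco1), and all 10 were found among the 54532 genes of the deposited tables. The libraries came from wild-type C57BL/6J pups aged 14 days, of which one group had breathed room air since birth (21% O2, called normoxia) and the other 80% O2 (hyperoxia), with 4 libraries in each. Bronchopulmonary dysplasia, a lung disease of preterm infants, is modelled in mice by such exposure. Per the study's methods, lung cells bound by CD45 beads were removed, and cells bound by CD31 beads were then collected as ECs. No transgene or drug was part of these libraries. The labels do not say how many pups gave a library. The female-specific transcript Xist and 4 Y-linked genes were both counted in 5 of the 8 libraries, so these 5 held RNA of pups of both sexes, while 2 had almost no Xist and hyperoxia 3 had almost no Y-linked counts. Xist had 3 counts in normoxia 2 and 8457 in normoxia 1, and 5 in hyperoxia 4 and 23970 in hyperoxia 3. The libraries of a group therefore did not all hold the same pups. Since nothing in the labels says that they came from separate litters or isolations, p-values measure only the spread between these samples, which may be partly technical.

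Cells take up iron mainly as transferrin-bound ferric iron through the transferrin receptor (Tfrc). In the endosome it is reduced by metalloreductases of the Steap family and carried to the cytosol as ferrous iron by DMT1 (Slc11a2). Iron that is not used is stored inside a shell of ferritin heavy and light chains (Fth1 and Ftl1), is freed again when NCOA4 carries ferritin to the lysosome, and leaves the cell through ferroportin (Slc40a1), the only known iron exporter of mammals, with oxidation by ceruloplasmin (Cp). The iron regulatory proteins IRP1 (Aco1) and IRP2 (Ireb2) bind a hairpin in messenger RNAs, the iron-responsive element (IRE), when iron is scarce. Bound at the 5′ end of a message they block its translation, and bound in the 3′ part of the Tfrc message they protect it from decay, so an mRNA level alone does not give the protein level of the ferritins or of ferroportin. Free ferrous iron reacts with peroxide to form hydroxyl radicals, which is why iron handling is of interest in lungs exposed to excess oxygen.

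The IREs of the members are shown because they separate the messages that the IRPs can hold at the start of translation from the message that they can stabilise. They were read from the protein-coding transcripts of GENCODE M21 (mouse build GRCm38), in the sense direction of each transcript, since the element works in RNA. The pattern searched was a C, 5 bases, a loop of CAGTG followed by any base other than G, and 5 bases that pair with the 5 before the loop, G with T allowed. Each line gives the 27 bases with 5 bases on either side of that core, 5′ to 3′, with T for U and the loop in capitals.
Fth1, 5′ untranslated region (UTR) of exon 1, plus strand, chr19:9982733-9982759: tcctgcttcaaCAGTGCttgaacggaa
Ftl1, 5′ UTR of exon 1, minus strand, chr7:45459780-45459806: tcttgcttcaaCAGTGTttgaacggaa
Slc40a1, 5′ UTR of exon 1, minus strand, chr1:45925466-45925492: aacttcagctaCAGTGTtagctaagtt
Tfrc, element 1, in the 3′ UTR of exon 19, plus strand, chr16:32631220-32631246: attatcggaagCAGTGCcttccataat
Tfrc, element 2, chr16:32631599-32631625: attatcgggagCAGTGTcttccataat
Tfrc, element 3, chr16:32631664-32631690: tatatcggagaCAGTGAtctccatatg
Tfrc, element 4, chr16:32631711-32631737: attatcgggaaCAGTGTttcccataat
In all, 7 elements were found in 4 members. The Fth1 and Ftl1 elements differed at 2 of 27 positions, while the Slc40a1 element differed from both at 14. The Tfrc elements differed from each other at 2 to 10 positions. For the other 6 members, Slc11a2 among them, this pattern was not met in the windows searched. That does not show that they lack an IRE, since the pattern misses an element whose 5 pairs are broken. Of all genes with an annotated 5′ UTR, 23 of 20916 (0.110%) held a match there, and of those with a 3′ UTR, 99 of 21707 (0.456%). Gene counts join all isoforms, so isoforms of Slc11a2 with different 3′ ends were not separated.

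The libraries held 16098086 to 18300730 counts, of which 15564 genes passed the filter on low counts, all 10 members included. Counts were compared with edgeR's quasi-likelihood test, and a gene is said to have risen or fallen where its p-value, adjusted over these 15564 genes by the Benjamini-Hochberg method, was under 0.05. Many genes passed: 5535 (35.6%), of which 2875 were higher (18.5%) and 2660 lower (17.1%) in hyperoxia. With a log2 fold change of at least 1 in either direction as well, 1087 passed (6.98%), 875 of them higher (5.62%). The 2 groups did not overlap for 35.4% of genes, with 17.8% higher in all hyperoxia libraries. The summed level of 12 pan-endothelial markers was 17990 to 19000 CPM (counts scaled to library size) in normoxia and 18178 to 19145 in hyperoxia, but single markers moved in both directions, with 5 higher, among them Eng (log2 fold change 0.43) and Emcn (0.42), and 3 lower, among them Tek (-0.79, edgeR adjusted p = 6.35e-06). Markers of other lung cells moved with the groups: all 10 alveolar type 2 (AT2) markers rose (summed CPM 177 to 337 in normoxia and 785 to 2600 in hyperoxia), as did all 8 alveolar type 1 (AT1) markers (78.2 to 97.5 and 165 to 468), 5 of 7 fibroblast markers (146 to 286 and 223 to 527) and 7 of 8 mural markers (47.0 to 82.8 and 103 to 181), and 1 of 4 platelet markers (18.3 to 24.3 and 21.8 to 33.8) and the 1 mesothelial marker tested (summed over 4 markers, 0.0552 to 0.735 and 0.859 to 1.998). Of 8 macrophage markers 1 rose and 1 fell (119 to 228 and 120 to 199), 5 of 6 erythroid markers fell (117 to 214 and 88.8 to 126), and neither of the 2 airway markers tested passed (summed over 6 markers, 1.65 to 3.20 and 2.61 to 3.38), with Krt5 at 0 counts. Hyperoxia 3 was unlike the rest of its group, with the lowest AT2 sum of its group (785, the others at least 2234) and a score of 20.3 on the first principal component against 40.2 to 42.9, so the fold changes of the members and their ratios are also given without it.

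The order of the members' levels was set by the ferritins. In FPKM, which is scaled to gene length and so allows genes to be compared, Fth1 averaged 342 ± 37.5 and Ftl1 242 ± 13.9 in normoxia (mean ± SD, n = 4). The sensors came next, with Ireb2 at 15.6 ± 0.785 and Aco1 at 11.7 ± 0.0751. The other members lay lower, with Ncoa4 at 5.02 ± 0.311, Slc11a2 at 3.74 ± 0.236, Tfrc at 3.55 ± 0.319, Cp at 1.01 ± 0.264, Slc40a1 at 0.927 ± 0.242 and Steap3 at 0.598 ± 0.102. Of neighbours in this order, the normoxia libraries of Slc11a2 and Tfrc overlapped, as did those of Cp and Slc40a1. In hyperoxia Slc40a1 averaged 3.22 ± 0.302 FPKM and stood above Cp at 1.597 ± 0.239, and no library of the former was below one of the latter. Slc11a2 at 5.23 ± 0.401 FPKM, Ncoa4 at 4.61 ± 0.138 and Tfrc at 4.28 ± 0.377 lay close together there, with each overlapping its neighbour, and Fth1 at 377 ± 48.5 overlapped Ftl1 at 305 ± 21.7. In every library Fth1 was nonetheless above Ftl1 in FPKM, by a ratio of 1.15 to 1.498. This order comes from the division by gene length, 866 bases for Fth1 and 1340 for Ftl1. In CPM, Ftl1 was above Fth1 in every library, with group means of 327.1 and 298.7 in normoxia and 410.9 and 328.5 in hyperoxia. Ftl1 also shares 26.5% of its exon bases with an antisense gene, and the strand setting of the counting is not known. It shares 8.13% with a gene on the same strand that had 0 counts. The effect of these overlaps on the Ftl1 level was not tested. FPKM of Fth1 rests on the gene model in the tables (GRCm38, chr19:9982703-9985092), the one member whose start and end differ from those of GENCODE M21.

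**Figure D1:**
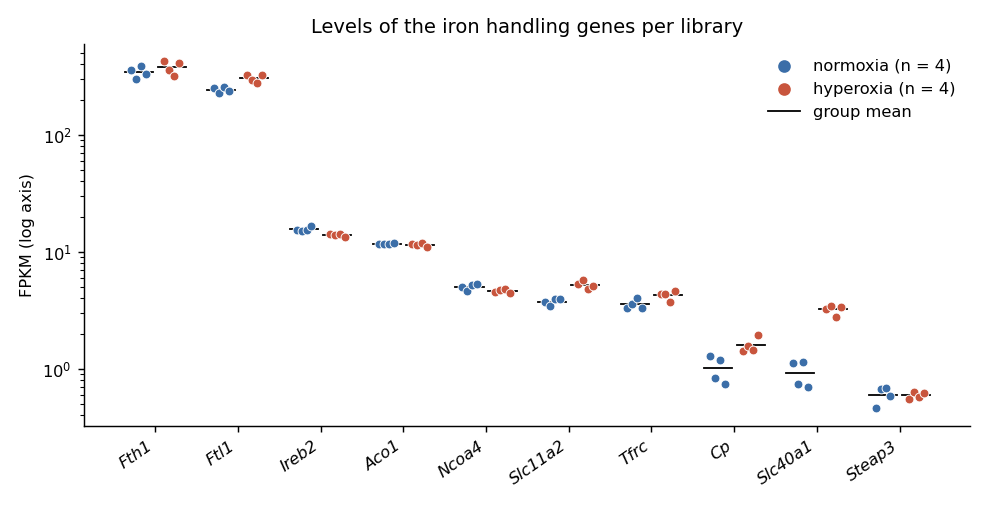
FPKM of each of the 10 genes (log axis) in the 4 normoxia (blue) and 4 hyperoxia (red) libraries, with a line at each group mean, ordered by the normoxia mean. The ferritins lie above 200 FPKM and all other members below 20, and the libraries of the 2 groups are farthest apart for Slc40a1.

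Of the uptake genes, the ferrous iron carrier rose most clearly. Slc11a2 (ENSMUSG00000023030, chr15:100387898-100425072, minus strand) had 23.7, 22.02, 25.01 and 25.1 CPM in normoxia 1 to 4 and 34.0, 36.5, 30.4 and 32.8 CPM in hyperoxia 1 to 4. Every hyperoxia library was above every normoxia library. This was a 1.40-fold rise, a log2 fold change of 0.48 (SE 0.07, 95% interval 0.32 to 0.64, edgeR adjusted p = 0.000485), and it was 0.52 without hyperoxia 3 (adjusted p = 0.000407). Exons of Slc11a2 share 6.33% of their bases with those of an antisense gene that had 26 counts against 4037 for Slc11a2 over the 8 libraries.

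Tfrc, the receptor that brings in transferrin-bound iron (ENSMUSG00000022797, chr16:32608920-32632794, plus strand), rose less. It had 20.8, 22.3, 24.9 and 20.6 CPM in normoxia 1 to 4 and 26.95, 27.2, 23.2 and 28.9 CPM in hyperoxia 1 to 4. The groups overlapped, with normoxia 3 above hyperoxia 3. The log2 fold change was 0.26 (SE 0.09, 95% interval 0.07 to 0.46, edgeR adjusted p = 0.0366), or 0.32 without hyperoxia 3 (adjusted p = 0.0141). This call is a weak one: leaving out normoxia 1, 2 or 4 or hyperoxia 1, 2 or 4 in turn gave adjusted p-values of 0.0657 to 0.104, and limma on log2(FPKM + 0.1) gave 0.0546.

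Steap3, the endosomal ferrireductase of erythroid cells that also acts elsewhere (ENSMUSG00000026389, chr1:120190757-120272705, minus strand), was the lowest member. It had 2.63, 3.87, 3.92 and 3.37 CPM in normoxia 1 to 4 and 3.20, 3.63, 3.32 and 3.55 CPM in hyperoxia 1 to 4, from 43 to 70 counts per library. The hyperoxia libraries all lay within the normoxia range. The log2 fold change was -0.01 (SE 0.17, 95% interval -0.38 to 0.36, edgeR adjusted p = 0.964), and 0.002 without hyperoxia 3 (adjusted p = 0.996). The interval is wide, so this comparison does not show that the level was the same.

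Of the storage genes, the light chain of ferritin rose and the heavy chain did not pass the test. Ftl1 (ENSMUSG00000050708, chr7:45457944-45459884, minus strand) had 336, 306, 346 and 319 CPM in normoxia 1 to 4 and 436, 398, 374 and 436 CPM in hyperoxia 1 to 4. All hyperoxia libraries were above all normoxia libraries. It rose 1.26-fold (log2 fold change 0.33, SE 0.06, 95% interval 0.19 to 0.47, edgeR adjusted p = 0.00200), and by 0.37 on the log2 scale without hyperoxia 3 (adjusted p = 0.00103). Exons of Ftl1 share 26.5% of their bases with an antisense gene that had 454 counts against 51896 for Ftl1. They share 8.13% with a gene on the same strand that had 0 counts. In addition, 2 annotated pseudogenes of Ftl1 held 867 counts (1.64% of the sum).

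Fth1, the ferritin chain that carries the ferroxidase activity (ENSMUSG00000024661, plus strand), had 312, 262, 335 and 286 CPM in normoxia 1 to 4. In hyperoxia 1 to 4 it had 371, 310, 277 and 357 CPM. The groups overlapped widely, and hyperoxia 3 was the second lowest of the 8 libraries. The log2 fold change was 0.14 (SE 0.10, 95% interval -0.08 to 0.36, edgeR adjusted p = 0.314), and 0.21 without hyperoxia 3 (adjusted p = 0.103). The 2 pseudogenes of Fth1 in the table held 82 counts (0.186% of the sum).

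The balance of the 2 chains was also compared as the ratio of Fth1 to Ftl1 FPKM within each library, which does not depend on how libraries are scaled to each other. The ratio was 1.43, 1.32, 1.498 and 1.39 in normoxia 1 to 4 and 1.32, 1.20, 1.15 and 1.27 in hyperoxia 1 to 4. All hyperoxia ratios were below all normoxia ratios, though the lowest of normoxia (log2 0.402) and the highest of hyperoxia (log2 0.396) lay closer together than the spread within either group. The mean log2 ratio moved from 0.49 ± 0.08 to 0.30 ± 0.09 with hyperoxia (± SD over 4 libraries), a difference of -0.19 (exact two-sided permutation test, p = 0.0286, adjusted over 4 ratios 0.0381). No comparison of 4 with 4 libraries can go below that p. The ratio of Tfrc to Fth1, which sets uptake beside storage, differed by 0.13 on the log2 scale (-6.59 ± 0.15 in normoxia and -6.46 ± 0.12 in hyperoxia, exact two-sided permutation test, p = 0.257, also after adjustment), and its groups overlapped.

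Ncoa4, the receptor that carries ferritin to the lysosome (ENSMUSG00000056234, chr14:32159865-32179855, plus strand), had 47.0, 43.6, 48.7 and 50.1 CPM in normoxia 1 to 4 and 42.6, 43.8, 44.9 and 42.3 CPM in hyperoxia 1 to 4. Normoxia 2 lay among the hyperoxia libraries, and the other 3 normoxia libraries were above all of them. The change was -0.13 on the log2 scale (SE 0.05, 95% interval -0.25 to -0.01, edgeR adjusted p = 0.0972). Without normoxia 2 it was -0.17 with an adjusted p of 0.0280, so that library decides the call. Without hyperoxia 3 it was -0.14 (adjusted p = 0.105).

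The iron exporter changed more than any other member. Slc40a1 (ENSMUSG00000025993, chr1:45908068-45926523, minus strand) had 10.2, 6.71, 10.4 and 6.35 CPM in normoxia 1 to 4 and 29.5, 31.3, 25.1 and 30.5 CPM in hyperoxia 1 to 4. The lowest hyperoxia library was above the highest normoxia library by more than the whole normoxia range, from 115 to 185 counts per normoxia library and 439 to 553 per hyperoxia library. The level rose 3.46-fold (log2 fold change 1.79, SE 0.16, 95% interval 1.44 to 2.14, edgeR adjusted p = 1.41e-05), and by 1.86 on the log2 scale without hyperoxia 3 (adjusted p = 1.92e-05). Slc40a1 was the only member with a log2 fold change of at least 1 in either direction. Its ratio to Fth1 within a library rose by 1.69 on the log2 scale, from -8.56 ± 0.26 to -6.87 ± 0.15 (exact two-sided permutation test, p = 0.0286, adjusted 0.0381).

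Macrophages of the lung and spleen are known for ferroportin, so their markers are set beside this value. Summed CPM of the 8 macrophage and monocyte markers was 174, 119, 228 and 140 in normoxia 1 to 4 and 199, 120, 125 and 176 in hyperoxia 1 to 4. The groups overlapped in this sum, and hyperoxia 2, with the highest Slc40a1 level, was among the lowest. Within normoxia, libraries 1 and 3 had the higher Slc40a1 levels, the higher macrophage sums and the higher AT2 sums (337 and 299 CPM, against 219 and 177). The AT2 sum of hyperoxia 3, at 785, was under that of the other 3 hyperoxia libraries (at least 2234), and its Slc40a1 level of 25.1 CPM was also the lowest of the group, against 29.5 to 31.3. The same library was the lowest of its group for Slc11a2, Ftl1, Tfrc and Fth1 as well, but not for Cp. Fibroblast and mural sums were also lowest of the group in hyperoxia 3 (223 and 103 CPM) and highest in hyperoxia 2 (527 and 181 CPM). Within normoxia the fibroblast sum was higher in libraries 1 and 3 (286 and 181 CPM, against 168 and 146). The mural sum was not, with 55.1 CPM in normoxia 2 and 53.9 in normoxia 3. The part of non-endothelial RNA in the rise of Slc40a1 was not tested, and in bulk libraries fewer cells of a type and less RNA per cell cannot be told apart.

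Cp, the secreted and membrane-anchored ferroxidase that works with ferroportin (ENSMUSG00000003617, chr3:19957054-20009145, plus strand), also rose. It had 12.4, 8.02, 11.4 and 7.18 CPM in normoxia 1 to 4 and 13.7, 15.1, 14.0 and 18.7 CPM in hyperoxia 1 to 4. No hyperoxia library was below a normoxia library, and normoxia 1 came within the normoxia SD of 2.52 CPM of the lowest hyperoxia library. The fold was 1.58 (log2 fold change 0.66, SE 0.18, 95% interval 0.27 to 1.05, edgeR adjusted p = 0.0143), and the log2 value was 0.70 without hyperoxia 3 (adjusted p = 0.0187). Exons of Cp share 1.13% of their bases with Hps3 on the other strand, which had 5324 counts against 1763 for Cp, and since the strand setting of the counting is not known, reads from this stretch cannot be assigned.

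**Figure D2:**
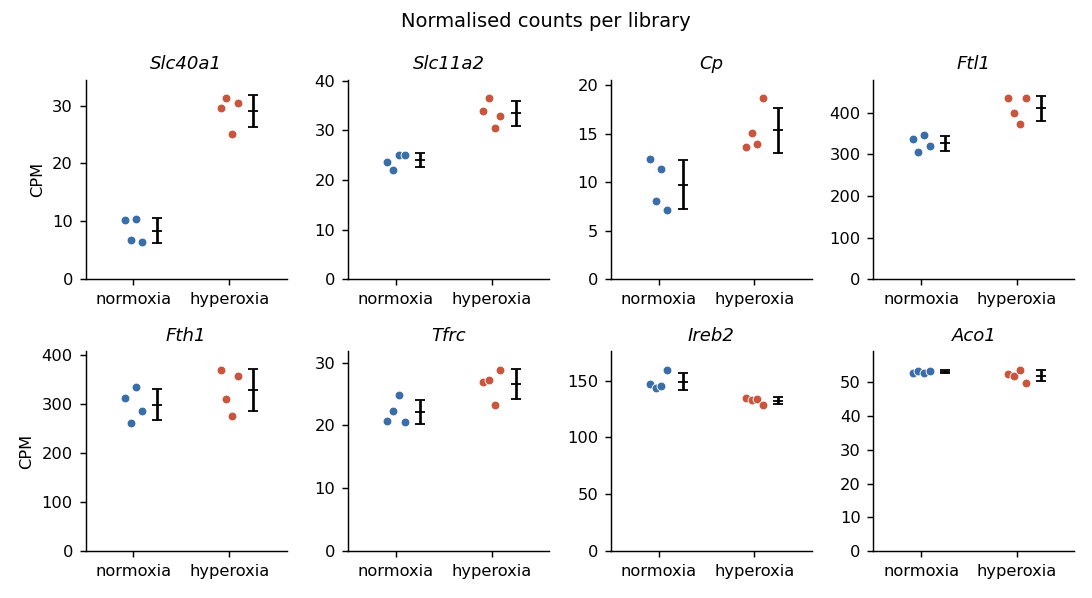
CPM (linear axes from 0) of 8 of the genes in each normoxia (blue) and hyperoxia (red) library, with the mean and SD of each group of 4 in black. Slc40a1, Slc11a2, Cp and Ftl1 are higher in every hyperoxia library, Ireb2 is lower in every one, and Fth1, Tfrc and Aco1 overlap.

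Of the 2 sensors, the mRNA of IRP2 fell slightly and that of IRP1 did not pass the test. Ireb2 (ENSMUSG00000032293, chr9:54863789-54912530, plus strand) had 147, 144, 145 and 160 CPM in normoxia 1 to 4 and 135, 133, 134 and 128 CPM in hyperoxia 1 to 4. All hyperoxia libraries were below all normoxia libraries. The log2 fold change was -0.17 (SE 0.05, 95% interval -0.27 to -0.07, edgeR adjusted p = 0.0136), a change of -11.2%, and it was -0.18 without hyperoxia 3 (adjusted p = 0.0262). IRP2 is regulated mainly through the decay of its protein, which these libraries do not measure.

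Aco1, whose product is IRP1 or, with an iron-sulfur cluster, the cytosolic aconitase (ENSMUSG00000028405, chr4:40143081-40198338, plus strand), had 52.8, 53.4, 52.7 and 53.5 CPM in normoxia 1 to 4. In hyperoxia 1 to 4 it had 52.4, 51.9, 53.8 and 49.8 CPM. The groups overlapped, with the normoxia libraries within 1 CPM of each other. The change was -0.03 on the log2 scale (SE 0.04, 95% interval -0.13 to 0.07, edgeR adjusted p = 0.618), and -0.05 without hyperoxia 3 (adjusted p = 0.484). The ratio of Aco1 to Ireb2 FPKM within a library was 0.757, 0.783, 0.764 and 0.707 in normoxia 1 to 4 and 0.820, 0.825, 0.848 and 0.818 in hyperoxia 1 to 4. The mean log2 ratio moved from -0.41 ± 0.06 to -0.27 ± 0.02, a difference of 0.14 (exact two-sided permutation test, p = 0.0286, adjusted 0.0381), with all hyperoxia libraries above all normoxia libraries. Without hyperoxia 3 the differences of the ratios were -0.16 for Fth1 to Ftl1, 0.11 for Tfrc to Fth1, 1.68 for Slc40a1 to Fth1 and 0.13 for Aco1 to Ireb2.

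**Figure D3:**
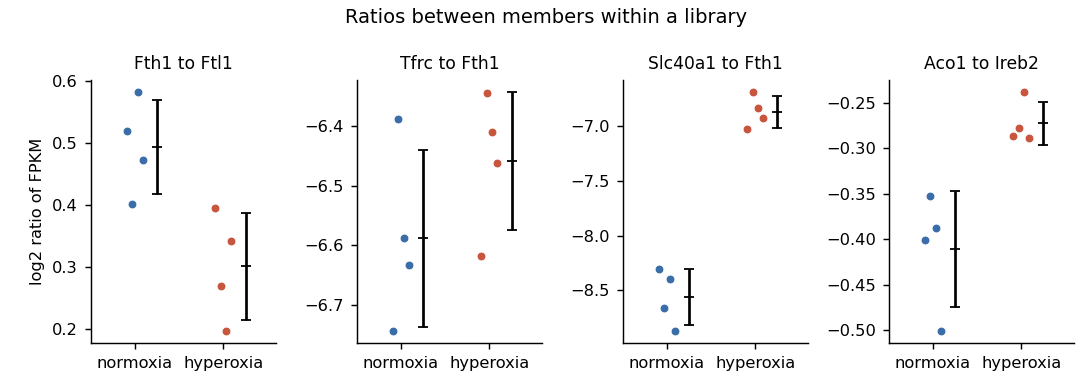
Log2 ratio of the FPKM of 2 genes within each library, normoxia in blue and hyperoxia in red, with the mean and SD of each group of 4 in black. The axes do not start at 0 and differ between panels. The groups do not overlap for Fth1 to Ftl1, Slc40a1 to Fth1 and Aco1 to Ireb2, and overlap for Tfrc to Fth1.

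Over the 10 members, 5 rose (Slc40a1, Cp, Slc11a2, Ftl1 and Tfrc), Ireb2 fell, and 4 (Fth1, Steap3, Aco1 and Ncoa4) did not pass, beside 35.6% of all genes tested that passed in either direction. The groups did not overlap for 5 members, 4 of them higher, beside 35.4% of all genes tested in either direction and 17.8% higher. The median log2 fold change was 0.20 over the members and -0.004 over all genes tested. Of the 4 members with an IRE in the pattern searched, 3 rose, among them Tfrc with its weak call, and Fth1 did not pass. Of all genes tested, 18.5% rose.

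Since the epithelial markers moved with the groups, the fit was also run with an epithelial score, the mean log2 CPM of the AT2 and AT1 markers minus its mean over the 8 libraries, as a covariate. The score ran from -1.73 to -0.995 in normoxia and from 0.199 to 1.77 in hyperoxia, so it did not overlap between the groups, and the SE of the members' fold changes grew by a median factor of 2.66. In this fit no member passed edgeR's adjusted threshold (1 of 10 had an unadjusted p under 0.05), and the number of genes that passed fell from 5535 to 241. The log2 fold change of Slc40a1 was 1.09 (SE 0.35, adjusted p = 0.198), that of Slc11a2 0.23 (SE 0.20), that of Cp 0.06 (SE 0.46) and that of Ftl1 0.01 (SE 0.15). Tfrc turned to -0.14 (SE 0.22), Fth1 to -0.43 (SE 0.23), and Ireb2 was at -0.08 (SE 0.14). With groups this far apart in the score, the group and the epithelial RNA cannot be told apart by this model.

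**Figure D4:**
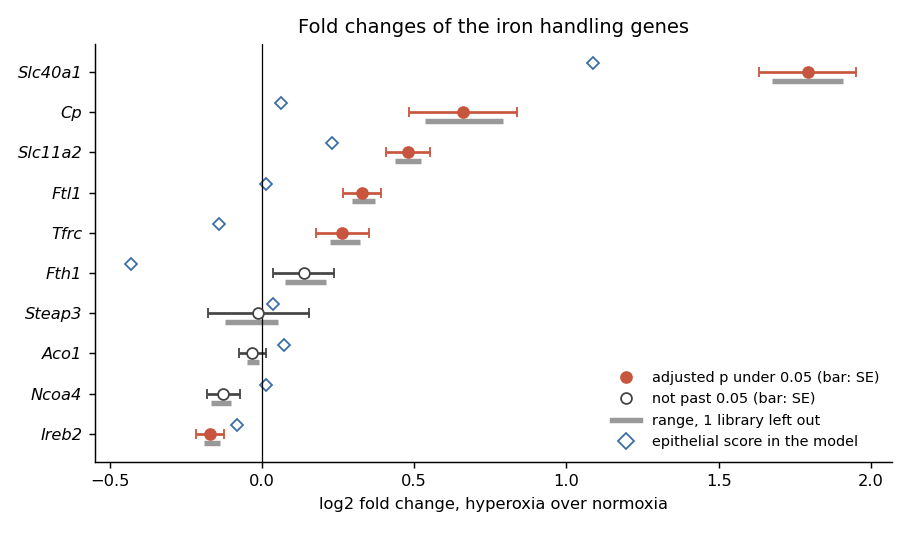
Log2 fold change of each of the 10 genes, hyperoxia over normoxia, with its SE (circles, filled red where the adjusted p was under 0.05), the range over the 8 fits that leave out 1 library (grey bars) and the value with the epithelial score in the model (blue diamonds). Slc40a1 stays above 1 in every fit drawn, while the diamonds of Cp, Ftl1 and Tfrc lie near or below 0.

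For the 3 members with the largest changes that passed, the genes of most similar profile were taken from 9076 protein-coding genes with a mean of at least 10 CPM, by the Pearson correlation of log2 CPM over the 8 libraries. Any 2 genes that differ between the groups correlate in this way, so the values are descriptive. For Slc40a1 they were Fndc1 (r = 0.996), Snap47 (0.996) and Tns3 (0.995). For Cp they were Lims2 (0.986), Mif (0.978) and Taf10 (0.978). For Slc11a2 they were Arl8b (0.994), Parva (0.993) and Mthfd1 (0.990).

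The other genes of iron and heme handling were taken from lists of 92 symbols, of which 88 were in the tables and 78 were tested. Of these 78, 23 rose, 14 fell and 41 did not pass, with a median log2 fold change of 0.01. The share that passed was 47.4%, beside 35.6% of all genes. In the fit without hyperoxia 3, 31 genes of the lists passed in place of 37. Over all libraries, 10 of the 78 passed with a log2 fold change of at least 1 in either direction, beside 6.98% of all genes tested. With the epithelial score in the model, none of the list genes passed. The log2 changes of these 10 were then 0.34 for Lrp2, 0.11 for Slc39a8, 0.52 for Steap2, 0.37 for Flvcr2 and 0.56 for Frrs1. Bmp2 was at -1.03, Cybrd1 at -0.34, Hp at -1.20, Lrp1 at -0.81 and Lcn2 at -0.57. The part of epithelial RNA in the changes of the lists was not tested.

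Among ferrous iron carriers and ferrireductases, 6 of 9 genes tested rose and 1 fell, the metal carrier Slc39a14 (log2 fold change -0.29, adjusted p = 0.00611). Of all genes tested, 18.5% rose and 17.1% fell. Slc39a8, a carrier of zinc, manganese and ferrous iron, rose from 5.60 ± 0.969 to 20.2 ± 5.65 CPM (log2 change 1.85, adjusted p = 0.000108), with 11.7 CPM in hyperoxia 3 and at least 22.2 in the other hyperoxia libraries. The ferric reductase Frrs1 rose from 23.9 ± 3.399 to 52.6 ± 6.87 CPM (log2 change 1.14, adjusted p = 3.85e-05) with no overlap. At lower levels, Steap2 rose from 0.534 to 2.26 CPM (2.08, adjusted p = 0.000562) and the duodenal type reductase Cybrd1 from 0.768 to 1.80 CPM (1.23, adjusted p = 0.00954, groups overlapping). Mcoln1, the lysosomal channel and the most abundant gene of the list, rose by 0.19 (73.2 ± 1.20 to 83.2 ± 1.83 CPM, adjusted p = 0.00449).

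Of the partners of transferrin-bound uptake, 2 of 5 tested rose and 1 fell, beside 18.5% and 17.1% of all genes tested. Hfe, which binds the transferrin receptor, fell from 76.3 ± 4.44 to 49.9 ± 4.57 CPM (log2 change -0.61, adjusted p = 8.34e-05), with every hyperoxia library below every normoxia library. Lrp2, an endocytic receptor of epithelia, rose from 0.505 ± 0.210 to 3.76 ± 1.37 CPM (log2 change 2.89, adjusted p = 0.000235). The sorting nexin Snx3, the most abundant of the list, had 237 ± 10.8 and 235 ± 6.84 CPM (-0.01, adjusted p = 0.874). The only export partner tested, the ferroxidase Heph, fell from 92.5 ± 5.50 to 82.0 ± 5.29 CPM (log2 change -0.17, adjusted p = 0.0439), with groups that overlapped. This call was lost in 10 of 14 other settings, not counting the fit with the epithelial score. In that fit it was lost as well (edgeR adjusted p = 0.633). Left out in turn, normoxia 2, 3 or 4 or hyperoxia 1, 3 or 4 gave Heph an adjusted p of 0.0596 to 0.120.

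In the list on control of hepcidin, the liver hormone that removes ferroportin from membranes, all 5 genes tested passed, 4 lower and Neo1 higher. Of all genes tested, 35.6% passed and 17.1% were lower. Bmp6, a growth factor that liver ECs release to induce hepcidin, fell from 512 ± 20.3 to 374 ± 6.90 CPM (log2 change -0.45, adjusted p = 2.41e-05). Bmp2 fell from 29.1 ± 4.26 to 13.6 ± 1.80 CPM (log2 change -1.10, adjusted p = 7.71e-05). For both, all hyperoxia libraries were below all normoxia libraries. Hepcidin itself (Hamp) had 30 counts over the 8 libraries together and was not tested.

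Of the iron chaperones and the partners of iron sensing, 2 of 6 tested rose and none fell. The share that passed, 33.3%, was near the 35.6% of all genes tested. Pcbp1, the most abundant, had 287 ± 10.8 and 289 ± 5.50 CPM (log2 change 0.01, adjusted p = 0.861), and Pcbp4 rose from 19.3 ± 2.11 to 29.9 ± 2.003 CPM (log2 change 0.63, adjusted p = 0.000291). Of the genes of mitochondrial iron import and iron-sulfur assembly, 6 of 23 rose and 3 fell, so 39.1% passed, also near that of all genes. Glrx5, a carrier of iron-sulfur clusters, rose from 36.3 ± 3.20 to 54.0 ± 2.58 CPM (log2 change 0.57, adjusted p = 0.000111), and the chaperone Hspa9 rose by 0.20 (106 ± 5.72 to 121 ± 3.71 CPM, adjusted p = 0.0101).

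In heme synthesis 1 of 9 genes rose and 2 fell, so 33.3% passed, near the 35.6% of all genes tested. Alas1, the enzyme that starts heme synthesis outside erythroid cells, rose from 99.96 ± 12.7 to 138 ± 14.8 CPM (log2 change 0.47, adjusted p = 0.00378). Alas2, its erythroid counterpart and also an erythroid marker, fell (-0.66, adjusted p = 0.0185), beside the 4 other erythroid markers that fell. In heme breakdown and transport 4 of 14 rose and none fell, so 28.6% passed, below the share of all genes. Hmox1, heme oxygenase and a known target of oxidant signals, had 28.9 ± 4.06 and 33.2 ± 4.002 CPM (0.20, adjusted p = 0.192), with overlapping groups. The lysosomal heme carrier Slc48a1 rose from 87.9 ± 1.78 to 135 ± 3.36 CPM (log2 change 0.61, adjusted p = 1.83e-06) with no overlap. Flvcr2, at 1.64 ± 0.330 and 4.84 ± 0.924 CPM, rose by 1.56 (adjusted p = 0.000269).

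Several genes of these lists are also known from alveolar epithelium, fibroblasts or granules of white cells. Lcn2, a binder of siderophores, rose from 3.01 ± 1.30 to 11.7 ± 4.88 CPM (log2 change 1.96, adjusted p = 0.00174), Lrp1, the receptor of heme-hemopexin, from 28.6 ± 7.69 to 63.4 ± 18.4 CPM (log2 change 1.15, adjusted p = 0.00341), and the hemoglobin binder Hp from 3.36 ± 1.62 to 7.88 ± 4.37 CPM (log2 change 1.23, adjusted p = 0.0369). In each of these 3 genes hyperoxia 3 was the lowest hyperoxia library, as it was in the AT2 sum and for Slc40a1, Slc11a2, Ftl1, Tfrc and Fth1, with 5.50 CPM of Lcn2, 36.1 of Lrp1 and 4.01 of Hp. Hp did not pass when normoxia 1, 2 or 4 or hyperoxia 1 or 2 was left out (adjusted p of 0.0619 to 0.106, the log2 change 0.79 without hyperoxia 1). The other carriers of the siderophore list did not pass, among them Slc22a17 at 14.1 ± 1.35 and 13.02 ± 1.65 CPM (-0.11, adjusted p = 0.490). The part of epithelial RNA in these values was not tested.

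Of 4 other messages known to carry an IRE, 3 fell and none rose, beside 17.1% of all genes tested that fell. The 3 were Epas1, the erythroid marker Alas2 and Cdc14a. Cdc14a was near the threshold and its groups overlapped (log2 change -0.25, edgeR adjusted p = 0.049). Epas1, a hypoxia-inducible factor that ECs express strongly, fell from 6709 ± 276 to 5471 ± 104 CPM (log2 change -0.29, adjusted p = 0.000555), with 6343 to 7010 CPM in normoxia and 5317 to 5540 in hyperoxia. In the same IRE search Alas2 had a match in the 5′ UTR and, outside this list, Bola3 in the 3′ UTR.

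**Figure D5:**
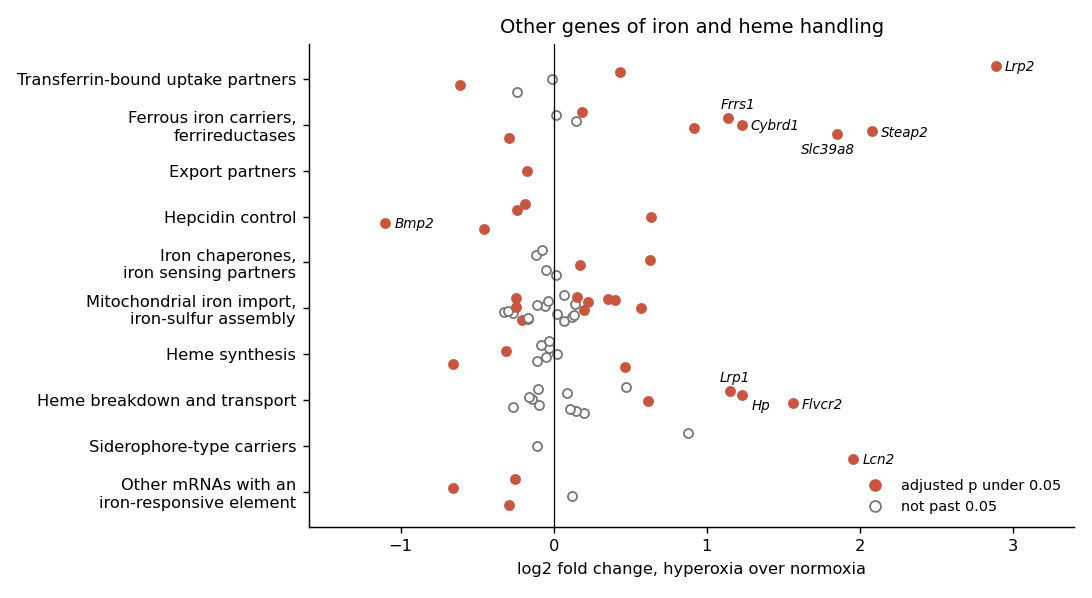
Log2 fold change (hyperoxia over normoxia) of the other iron and heme genes tested, 1 circle per gene and list, filled red where the adjusted p was under 0.05, with names for those past a log2 fold change of 1 in either direction. Most names lie to the right, and Bmp2 is the only named gene on the left.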

How the data were processed

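The authors deposited whole-number gene counts and FPKM for 8 libraries. Per the submitters' processing notes, reads were aligned with HISAT2 2.0.5 to mm10 and counted with featureCounts 1.5.0-p3. The annotation release and the strand and multi-mapping settings are not given in the sources used here. The deposited FPKM equal count over gene length and library total, up to 1 constant per library, so they add no independent measurement. Groups and replicate numbers came from the sample titles. Counts were tested with edgeR 4.0.16 in R 4.3.3 (quasi-likelihood, TMM normalization, filterByExpr, group as the only term), with Benjamini-Hochberg adjustment over 15564 genes. CPM uses TMM-normalized totals. Exact permutation tests, two-sided, served for ratios. DESeq2 1.42.0, limma 3.58.1 on log2(FPKM + 0.1), other filters and normalization, a replicate block, an epithelial covariate and leaving out each library were the alternatives. Scripts were tested on simulated data. Members, lists and tests were chosen with earlier results of these data known. Named beside the members were, in each list, the most abundant gene, those past the threshold and at least 1 on the log2 scale in either direction with a mean of at least 1 CPM, the gene of lowest adjusted p, and Hmox1 and Bmp6. Slc39a14, Neo1, Alas2, Cdc14a, Hamp and Bola3 were named after their values were seen. No value column was left unmapped.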

Additional observations from a re-analysis of the deposited data

Results flagged for a closer look

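In groups of 4 libraries, 5 of 76 groups tested held a library whose gap to its nearest neighbour was above Dixon's critical value, where chance gives about 1 in 20 (3.80). None of them was a member or a ratio of members. Hyperoxia 3 was the low library in 3 of these: Lrp2 had 1.72 CPM there and 4.28 to 4.64 in the other hyperoxia libraries, Slc39a8 had 11.7 against 22.2 to 23.7, and Cybrd1 had 1.20 against 1.94 to 2.04. The AT2 sum was also lowest in that library. Cybrd1 had 1.23 CPM in normoxia 1 (20 counts) and 0.608 to 0.626 in the other normoxia libraries. Epas1 had 5317 CPM in hyperoxia 1 and 5507 to 5540 in the others, a small difference beside that between the groups.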

How the results depend on the processing

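With the epithelial score as a covariate, 241 genes passed in place of 5535, 174 in place of 1087 at a size of at least 1 on the log2 scale, 0 members in place of 6 (1 at an unadjusted edgeR p under 0.05) and 0 other iron genes in place of 37 (10 at an unadjusted p under 0.05). The same fit turned the sign of Tfrc to -0.14, Cybrd1 to -0.34, Hp to -1.20, Lrp1 to -0.81 and Lcn2 to -0.57. Its score does not overlap between the groups, and the cause was not tested. Under the other normalization, DESeq2, filters, limma and each library left out, 5 or 6 members passed: Slc40a1, Cp, Slc11a2, Ftl1 and Ireb2 in each of these fits, Tfrc not under limma nor without normoxia 1, 2 or 4 or hyperoxia 1, 2 or 4, and Ncoa4 only without normoxia 2. Same-numbered libraries did not deviate together (correlations of -0.14 to 0.12), so the numbers do not pair the samples. With the replicate block 4792 genes and 5 members passed (Tfrc adjusted p = 0.0902). Of 152 values of members under alternatives, 137 kept their side of the threshold, which includes members that never passed and whose small values could change sign. With 4 libraries a group, the misses of Steap3, Fth1 and Aco1 do not show that their levels were the same.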
